A study of Homo sapiens with 6 samples.

Results

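The MHC class II genes are described here after 24 h in 2 µM UC-764864 or in DMSO, the vehicle. The cells were MOLM-13, a human line from an acute myeloid leukaemia. The 10 members were taken by gene symbol from a table of 56638 rows. They are the chain genes HLA-DRA, HLA-DRB1, HLA-DQB1, HLA-DPA1 and HLA-DPB1, the invariant chain gene CD74, the peptide exchange genes HLA-DMA and HLA-DMB, and the regulators CIITA and RFX5. All 10 had a row, and 9 of 10 passed the filter on low counts, HLA-DPB1 being the exception.

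The series title calls UC-764864 a UBE2N inhibitor (UBE2N attaches ubiquitin to proteins), and the sample labels shorten the name to UC64, while the design text has UC-744864. Both groups were the same line, grown in RPMI medium with fetal bovine serum, and poly(A) RNA was sequenced in 3 UC-764864 libraries (UDI0051, UDI0052 and UDI0053) and 3 DMSO libraries (UDI0054, UDI0055 and UDI0056). Whether the 3 libraries per treatment were separate cultures is not stated, and the p-values therefore cover only library-to-library spread, which may be technical. A single line under a single dose and time was studied.

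MHC class II molecules are pairs of an alpha and a beta chain that show peptides from endosomes to CD4+ T cells. In the endoplasmic reticulum the chains assemble on the invariant chain, CD74, whose last fragment (CLIP) stays in the peptide groove until HLA-DM, a dimer of the HLA-DMA and HLA-DMB products, exchanges it for another peptide. Transcription of these genes depends on CIITA, a coactivator that does not bind DNA itself and docks on RFX (of which RFX5 is a subunit), CREB family factors and NF-Y at a conserved set of promoter elements that includes the X box and the Y box. B cells, dendritic cells and macrophages carry class II molecules, and blasts of many myeloid leukaemias do too.

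RefSeq promoter windows (GRCh38.p14, 250 bases before to 50 bases after an annotated start) were found for 8 of the 10 members, in 11 windows. HLA-DRA and CIITA had none. The windows were searched on both strands for an X box core (AG, any 2 bases, AC, any 1 base, GAT) and a Y box core, GATTGG. The X box core was in 2.29% and the Y box core in 15.1% of all 35116 windows in the table. An X box core followed on the gene strand by a Y box core that starts 25 to 40 bases later was in 10 windows of the table (0.0285%). Among them were the members HLA-DRB1, HLA-DQB1 and HLA-DMA, and the class II genes HLA-DRB5 and HLA-DOA, which are not members. The remaining windows belong to LINC01705, LOC102724431, LOC101928608 and CLEC12A. The stretch around the X box core is shown for these 3 members and for HLA-DMB, which holds the X box core without a Y box core at that distance, because these are the 4 members whose windows hold the X box core. Each stretch is 5′ to 3′ on the minus strand, and the capitals mark the X box core and then, where present, the Y box core that follows it on the gene strand.
HLA-DRB1, chr6:32589860-32589957: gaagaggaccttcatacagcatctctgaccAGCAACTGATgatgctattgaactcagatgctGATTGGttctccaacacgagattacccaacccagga
HLA-DQB1, chr6:32666711-32666808: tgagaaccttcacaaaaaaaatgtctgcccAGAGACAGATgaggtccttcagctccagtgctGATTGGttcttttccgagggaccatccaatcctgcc
HLA-DMA, chr6:32953142-32953240: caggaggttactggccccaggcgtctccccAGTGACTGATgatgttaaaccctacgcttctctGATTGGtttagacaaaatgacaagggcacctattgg
HLA-DMB, chr6:32941049-32941146: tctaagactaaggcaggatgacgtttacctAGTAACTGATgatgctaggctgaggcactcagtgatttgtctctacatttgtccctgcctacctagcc

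The Y box core started 32 bases after the start of the X box core in HLA-DRB1 and HLA-DQB1, and 33 bases after it in HLA-DMA. A further Y box core on the other strand of HLA-DQB1 lies inside the stretch shown and is in lower case. Further X box cores matched on the other strand in HLA-DRB1 and on both strands in HLA-DMB, and the other-strand match of HLA-DMB overlapped a Y box core. CD74 and HLA-DPA1 had neither core, and HLA-DPB1 and 1 of the 3 RFX5 windows had a Y box core without an X box core. These are matches to letters in the reference sequence, not measured binding sites, and the alleles of MOLM-13 were not read.

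**Figure D1:**
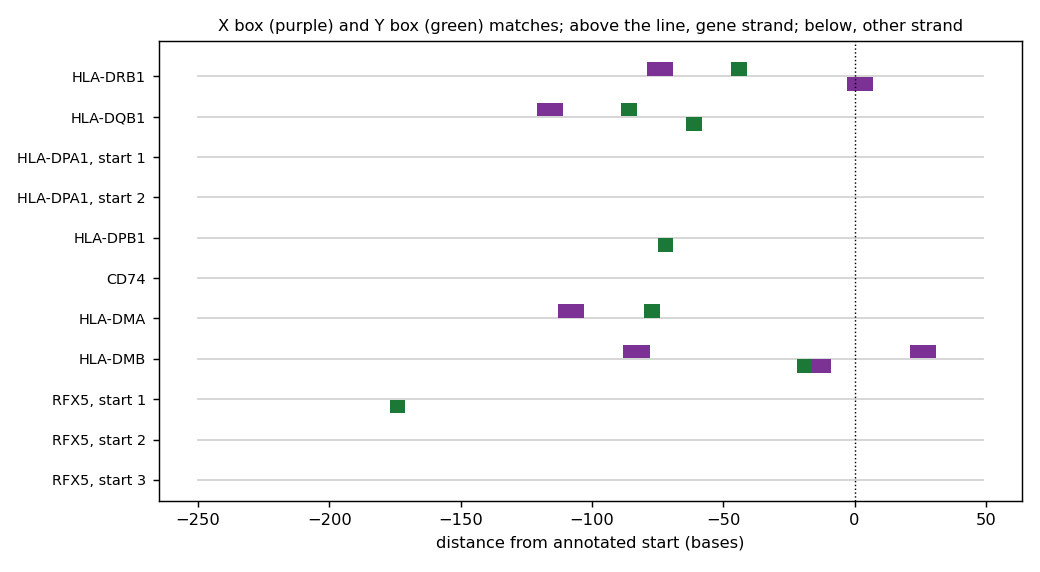
Matches to the X box core (purple) and the Y box core (green) in the 11 promoter windows of 8 members, by distance in bases from the annotated start (dotted line). Matches above a line lie on the gene strand and those below it on the other strand. HLA-DRB1, HLA-DQB1 and HLA-DMA show an X box core followed by a Y box core on the gene strand.

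The UC-764864 libraries held 17073654 to 25014437 counts and the DMSO libraries 16136156 to 24511499. CPM is a gene's count scaled to a common library total, and a count of 3, taken as the floor of detection, equals 0.123 to 0.198 CPM and covers counting error only. The column of UDI0055 holds only zeros in 2 runs of rows, 3799 rows in all, and these were left out for all libraries, so the comparison rests on 52839 rows. No member is among them. Treatments separated on the first principal component of the tested genes (56.2% of variance). On the second (20.4%), UDI0052 and UDI0056 scored lowest.

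The markers of the label were largely present: CD33, FLT3, SPI1, MPO and LYZ, which mark myeloid cells, averaged 134, 468, 207, 93.5 and 5848 CPM in UC-764864 libraries, and 107, 504, 171, 90.7 and 3170 CPM in DMSO libraries. CD14 and CD68, which are among the markers of mature monocytes and macrophages, averaged 0.394 and 0.528 CPM in UC-764864 libraries. In DMSO libraries they averaged 0.304 and 0.367 CPM. The rest of the list was higher: FCGR1A, CSF1R, ITGAM, HOXA9 and MEIS1 averaged 28.2, 33.9, 15.98, 64.2 and 40.4 CPM in UC-764864 libraries. Their DMSO means were 29.6, 50.8, 32.5, 107 and 44.9 CPM. Markers of other class II bearing cells were low, apart from CD83 of the dendritic cell list. CD83 averaged 20.9 CPM in UC-764864 libraries and 19.2 CPM in DMSO libraries. The 7 B cell markers summed to 0.901 to 1.37 CPM in UC-764864 libraries and 1.06 to 1.502 CPM in DMSO libraries, with MS4A1 at 0 in all 6 libraries. The 9 dendritic cell markers summed to 23.2 to 23.6 CPM in UC-764864 libraries and 21.7 to 22.4 CPM in DMSO libraries, mostly CD83, with CLEC9A and XCR1 at 0 in all libraries.

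Among the class II members, HLA-DRA fell after UC-764864 and no other member passed the test. HLA-DRA, the chain shared by all HLA-DR molecules, was lower by 2.28-fold (8.76 ± 0.573 CPM in UC-764864 libraries and 20.0 ± 1.85 CPM in DMSO libraries, SD, n = 3 each). HLA-DRB1 and HLA-DQB1 were also lower in every UC-764864 library than in any DMSO library, without passing. CD74, HLA-DMA and CIITA, which encode the invariant chain, a chain of the peptide exchanger and the coactivator, overlapped between the groups. RFX5 was higher in every UC-764864 library, also without passing.

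By edgeR's quasi-likelihood test with Benjamini-Hochberg adjustment over 13490 genes, 1 of 9 tested members was lower and 0 were higher at an adjusted p under 0.05. Of all genes tested, 8.13% were called lower and 5.11% higher, so 1 in 9 is near the background. At an unadjusted p under 0.05, 3 members were lower and 1 higher, against 16.6% and 14.9% of all genes. DESeq2 called 1 lower and 1 higher, against 9.77% and 6.74% of the genes to which it gave an adjusted p. The groups did not overlap, with UC-764864 lower, for 3 of the 9 members, against 17.0% of all genes tested. They did not overlap, with UC-764864 higher, for 1 member, against 19.0% of all genes. The log2 fold change was below 0 in 7 of the 9 members, against 48.7% of all genes, and its median was −0.27 over the members and 0.01 over all genes. In bulk RNA, fewer cells with a transcript and less transcript per cell cannot be told apart.

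HLA-DRA had 186, 131 and 179 counts in the UC-764864 libraries UDI0051, UDI0052 and UDI0053, which equals 8.38, 8.48 and 9.42 CPM. It had 444, 451 and 335 counts in the DMSO libraries UDI0054, UDI0055 and UDI0056, which equals 19.6, 18.5 and 22.1 CPM. The groups lay far apart, and within each group the libraries differed little. The log2 fold change was −1.19 ± 0.14 (SE), with a 95% interval of −1.49 to −0.89 (edgeR adjusted p = 0.00142). HLA-DRA ranked 17 by p among the 13490 genes. It passed in each of 13 alternative fits, with log2 fold changes from −1.31 to −1.12 and adjusted p of at most 0.0389.

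HLA-DRB1, the main partner chain of HLA-DRA, had 1.98, 1.23 and 2.05 CPM in UC-764864 libraries, against 3.45, 4.09 and 2.11 CPM in DMSO libraries. The groups did not overlap, but the DMSO library UDI0056 stood close to the UC-764864 group. Its log2 fold change was −0.88 ± 0.28 (SE; 95% interval −1.48 to −0.28) and did not pass (edgeR adjusted p = 0.0555). Without UDI0056 it was −1.08 and passed (adjusted p = 0.00909), and 6 of 13 alternatives passed in all, with adjusted p over the 13 from 0.00364 to 0.153. HLA-DRB1 is highly polymorphic and has near-identical relatives, so reads of alleles unlike the reference may be missed or assigned to a relative, and its level is uncertain. HLA-DRB5, a relative, had 0 or 1 count in each library. The relatives HLA-DRB3 and HLA-DRB4 lie in the rows left out, so their counts were not compared.

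HLA-DQB1, the beta chain of HLA-DQ, had 2.70, 2.46 and 3.26 CPM in UC-764864 libraries, against 4.73, 4.38 and 3.43 CPM in DMSO libraries. Here too the groups did not overlap and UDI0056 was the DMSO library nearest to the other group. The log2 fold change was −0.58 ± 0.20 (SE; 95% interval −1.01 to −0.15) and did not pass (edgeR adjusted p = 0.0710). A call was reached without UDI0056 (−0.69, adjusted p = 0.0399) and after removal of each library's GC trend (−0.67, adjusted p = 0.0182), and over the 13 alternatives the adjusted p ranged from 0.0182 to 0.243. HLA-DQB1 is polymorphic as well, and its overlapping antisense gene HLA-DQB1-AS1 was at 0 in all libraries. The partner chain gene HLA-DQA1, from the list of other chains, had 1, 1 and 0 counts in UC-764864 libraries and 3, 3 and 0 in DMSO libraries, none above the floor.

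HLA-DPA1 and HLA-DPB1, the chains of HLA-DP, were at or near the floor. HLA-DPA1 had 8, 12 and 3 counts in UC-764864 libraries, against 6, 17 and 8 in DMSO libraries. HLA-DPB1 had 6, 4 and 3 counts in UC-764864 libraries, against 3, 10 and 1 in DMSO libraries. Both groups overlapped for both genes. A change in HLA-DPA1 was not detectable at this depth (log2 fold change −0.27 ± 0.54, 95% interval −1.45 to 0.90, edgeR adjusted p = 0.761), and HLA-DPB1 was not tested. The 2 genes overlap on opposite strands in the annotation, and whether counting used the strand is not given in the sources used here, so reads of the overlap cannot be assigned with certainty. RPL32P1 overlaps both genes as well and shares the strand of HLA-DPB1, so strand does not separate those reads.

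**Figure D2:**
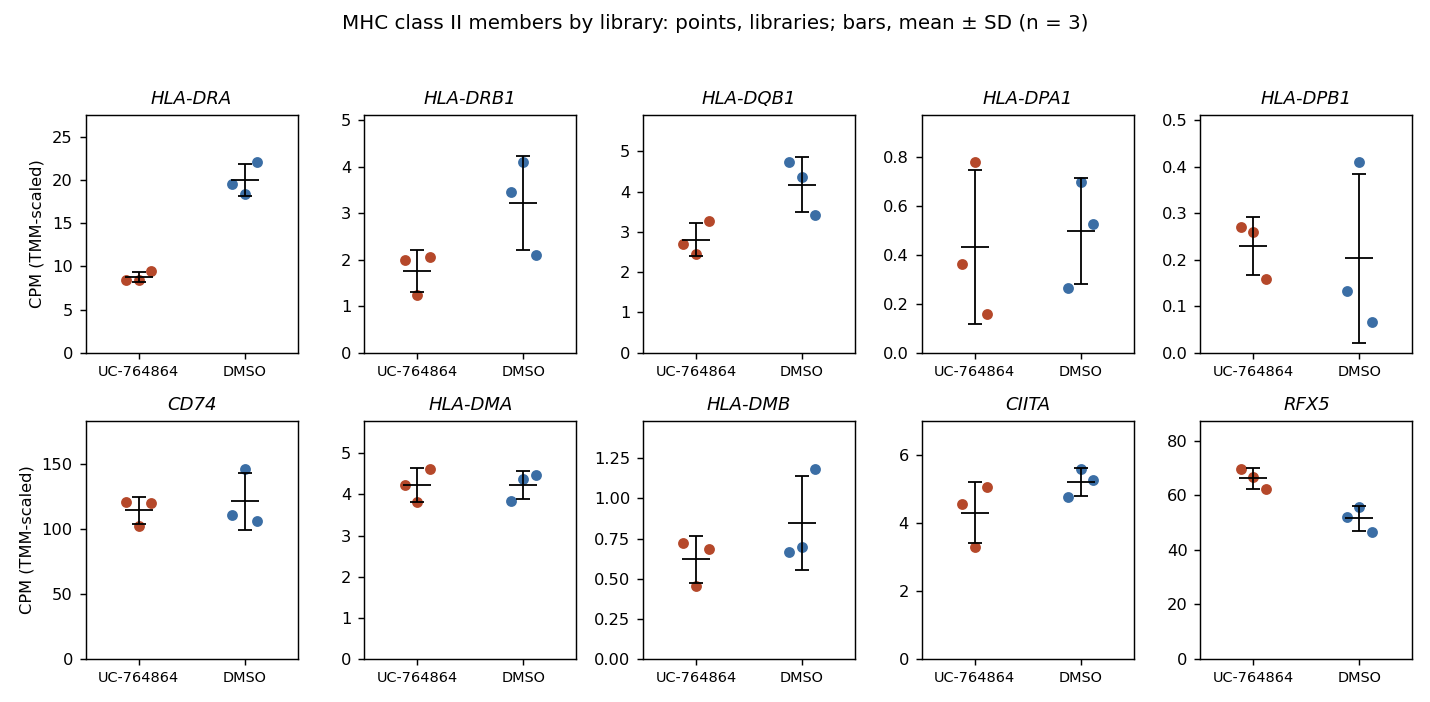
CPM of the 10 members in 3 UC-764864 libraries (left in each panel) and 3 DMSO libraries (right). Points are libraries, bars are the mean ± SD, and each panel has its own axis from 0. The HLA-DRA panel shows UC-764864 libraries at 8.38 to 9.42 CPM and DMSO libraries at 18.5 to 22.1 CPM, and in the CD74 and HLA-DMA panels the groups overlap.

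CD74 had 121, 103 and 120 CPM in UC-764864 libraries, against 111, 147 and 107 CPM in DMSO libraries. The groups overlapped, and UDI0055 alone stood above the rest. The log2 fold change was −0.09 ± 0.14 (SE), and its 95% interval of −0.39 to 0.22 leaves out a fall as large as that of HLA-DRA (edgeR adjusted p = 0.705). Without UDI0055 it was 0.07 (adjusted p = 0.689).

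The 2 chains of the peptide exchanger HLA-DM gave different precision. HLA-DMA had 4.24, 3.82 and 4.63 CPM in UC-764864 libraries, against 3.84, 4.38 and 4.48 CPM in DMSO libraries, so the groups overlapped fully. Its log2 fold change was 0.01 ± 0.17 (SE; 95% interval −0.36 to 0.37, edgeR adjusted p = 0.988). HLA-DMB had 16, 7 and 13 counts in UC-764864 libraries, against 15, 17 and 18 in DMSO libraries, or 0.619 ± 0.145 and 0.848 ± 0.293 CPM (SD, n = 3 each). Its log2 fold change of −0.37 ± 0.35 (SE) had a 95% interval of −1.13 to 0.39 and did not pass (edgeR adjusted p = 0.500). Both values are uncertain because AL645941.2 in GENCODE v29 overlaps both genes, and BRD2 overlaps HLA-DMA on the opposite strand.

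CIITA, the coactivator of the class II promoters, had 4.55, 3.30 and 5.05 CPM in UC-764864 libraries, against 4.77, 5.60 and 5.27 CPM in DMSO libraries. The groups overlapped through UDI0053, and UDI0052 was the lowest library. CIITA had a log2 fold change of −0.27 ± 0.19 (SE; 95% interval −0.67 to 0.14) and did not pass (edgeR adjusted p = 0.347). It did not pass in any of the 13 alternatives, where the adjusted p ranged from 0.0684 to 0.668. The annotation places DEXI and AC133065.1 on the opposite strand over parts of CIITA, and AC133065.3 on the same strand. Unstranded reads shared with the opposite strand genes could come from either gene. Reads shared with AC133065.3 cannot be assigned by strand at all.

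RFX5, the DNA-binding subunit of RFX, had 69.8, 66.7 and 62.1 CPM in UC-764864 libraries, against 52.0, 55.8 and 46.7 CPM in DMSO libraries. The groups did not overlap, and the direction was opposite to that of HLA-DRA. RFX5 had a log2 fold change of 0.36 ± 0.12 (SE; 95% interval 0.10 to 0.62) and did not pass (edgeR adjusted p = 0.0628). DESeq2 called it (0.35, adjusted p = 0.0429), as did edgeR in the absence of UDI0055 (0.42, adjusted p = 0.0301) or of the GC trend (0.22, adjusted p = 0.0373), and over the 13 alternatives the adjusted p ranged from 0.0301 to 0.275. The annotation places AL391069.1 and AL391069.3 over RFX5 on the opposite strand, so unstranded reads there cannot be assigned with certainty.

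**Figure D3:**
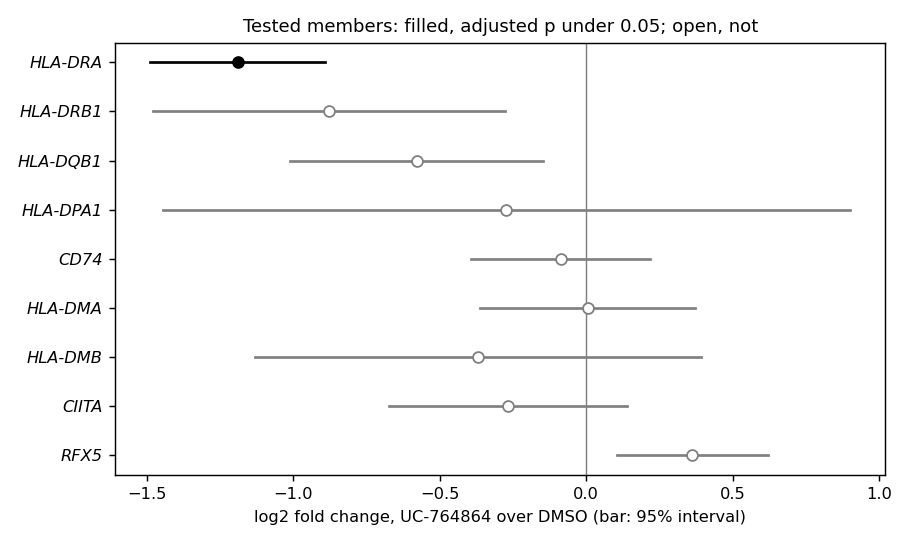
Log2 fold change, UC-764864 over DMSO, of the 9 tested members, with 95% intervals; the filled point passed at an adjusted p under 0.05. HLA-DRA at −1.19 is the filled point, while the intervals of CD74, HLA-DMA, HLA-DMB, HLA-DPA1 and CIITA include 0.

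Counts of 2 genes can be compared within a library without any scaling. The log2 ratio of HLA-DRA to CD74 counts was −3.85, −3.60 and −3.67 in UC-764864 libraries, against −2.50, −2.99 and −2.27 in DMSO libraries. The groups did not overlap, and the difference of −1.12 (−3.71 ± 0.13 after UC-764864 and −2.59 ± 0.37 after DMSO, SD, n = 3 each) reached p = 0.1, the smallest that an exact two-sided permutation test of 3 against 3 libraries allows (0.2 adjusted over the 2 ratios). The log2 ratio of HLA-DRA to HLA-DRB1 was 2.08, 2.79 and 2.20 in UC-764864 libraries, against 2.51, 2.17 and 3.39 in DMSO libraries. These groups overlapped, and the difference of −0.34 had an exact permutation p of 0.6 (0.6 adjusted). The pairs were chosen with the behaviour of HLA-DRA known, so the first ratio is not independent of its fall.

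**Figure D4:**
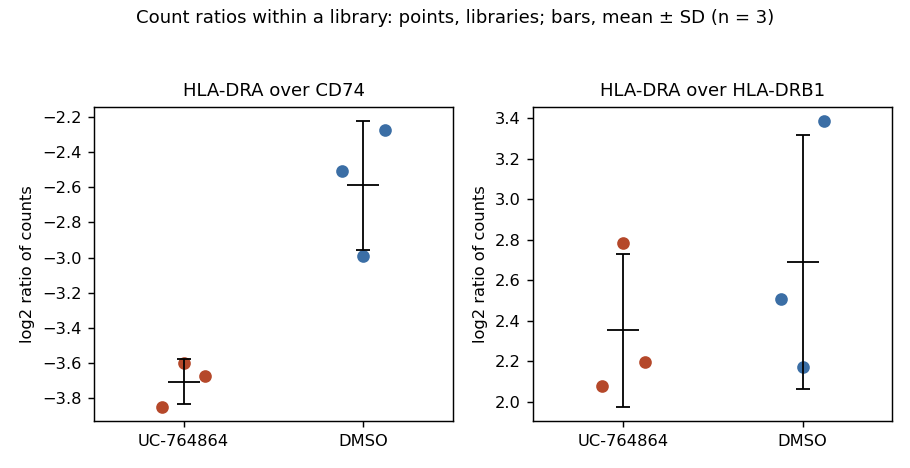
Log2 ratio of HLA-DRA to CD74 counts (left panel) and to HLA-DRB1 counts (right panel) in each library, with UC-764864 left of DMSO. Points are libraries, bars are the mean ± SD, and the axes do not start at 0. The HLA-DRA to CD74 ratio lies at −3.85 to −3.60 in UC-764864 libraries and −2.99 to −2.27 in DMSO libraries, and the groups overlap for HLA-DRB1.

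Levels of different genes were compared as CPM per kilobase of annotated exon (GENCODE v29, GRCh38, all exons of a gene joined), which gives low values to genes with many annotated isoforms such as CIITA. After DMSO, CD74 was highest at 38.2 ± 6.90 CPM per kilobase (SD, n = 3), followed by HLA-DRA at 15.7 ± 1.44 and RFX5 at 11.2 ± 1.00. HLA-DRB1 at 2.62 ± 0.823 and HLA-DMA at 1.67 ± 0.135 CPM per kilobase came next, and their DMSO libraries overlapped. HLA-DQB1 was at 0.852 ± 0.137, CIITA at 0.251 ± 0.0202, HLA-DMB at 0.182 ± 0.0630, HLA-DPA1 at 0.0863 ± 0.0377 and HLA-DPB1 at 0.0726 ± 0.0652 CPM per kilobase. CIITA overlapped HLA-DMB over the DMSO libraries, and HLA-DPA1 overlapped HLA-DPB1. After UC-764864, CD74 stood at 36.0 ± 3.20 CPM per kilobase, RFX5 at 14.4 ± 0.835 and HLA-DRA at 6.84 ± 0.448, so RFX5 and HLA-DRA had changed places.

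Other genes of class II presentation were taken from 4 lists of 43 symbols. Of the other class II chains, 1 of 8 was tested: HLA-DOB, which encodes a chain of HLA-DO, the inhibitor of HLA-DM. It had 4.31 ± 0.566 CPM in UC-764864 libraries and 3.54 ± 0.649 CPM in DMSO libraries (SD, n = 3 each), and its log2 fold change of 0.30 did not pass (edgeR adjusted p = 0.314). HLA-DOA and HLA-DQA2 were at 0 in all libraries, and HLA-DRB3 and HLA-DRB4 lie in the rows left out.

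Of 8 genes for factors of the class II promoter and the related class I coactivator NLRC5, all were tested, and edgeR's quasi-likelihood test called 0 lower and 0 higher. At an unadjusted p under 0.05, 0 were lower and 1 higher (16.6% and 14.9% of all genes), and DESeq2 called 0 in either direction (9.77% lower and 6.74% higher of all genes). The median log2 fold change was −0.06, against 0.01 over all genes. NFYC, an NF-Y subunit, had the smallest p at a log2 fold change of 0.32 ± 0.13 (SE; edgeR adjusted p = 0.121). RFXANK and RFXAP, the partners of RFX5 in RFX, had log2 fold changes of −0.02 and −0.31 (edgeR adjusted p = 0.937 and 0.169), and were chosen after their values were seen.

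Interferon gamma induces CIITA through its receptor, the JAK kinases and IRF1. IFNG, the cytokine gene, was at 0 in all libraries, and of the 10 tested genes of this list edgeR's quasi-likelihood test called 0 lower and 0 higher. At an unadjusted p under 0.05, 3 were lower and 1 higher (16.6% and 14.9% of all genes), and DESeq2 called 0 lower and 1 higher (9.77% and 6.74% of all genes). The list's median log2 fold change was −0.16, against 0.01 over all genes. USF1, a factor of the CIITA promoter, had 74.3, 70.2 and 69.1 CPM in UC-764864 libraries, against 61.0, 56.2 and 50.8 CPM in DMSO libraries. These groups did not overlap, and the log2 fold change of 0.35 ± 0.12 (SE) did not pass (edgeR adjusted p = 0.0682) but passed with DESeq2 (0.33, adjusted p = 0.0480).

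Of 10 tested genes of class II antigen processing and turnover, edgeR called 2 lower (MARCH1 and SPPL2A) and 2 higher (LAMP1 and CTSL), and 6 did not pass. LAMP2, also of this list, lies in the rows left out. Over all genes 8.13% were called lower and 5.11% higher, and the median log2 fold change was 0.02 over the list and 0.01 over all genes. MARCH1, a ubiquitin ligase that removes class II molecules from the cell surface, had 6, 8 and 11 counts in UC-764864 libraries, against 39, 22 and 31 in DMSO libraries. Its means were 0.456 and 1.56 CPM, so the UC-764864 libraries were near the floor. The groups did not overlap, and MARCH1 fell by 1.75 ± 0.40 (SE) on the log2 scale (edgeR adjusted p = 0.0187). Leaving out UDI0051 (−1.45, adjusted p = 0.0898) or UDI0054 (−1.64, adjusted p = 0.0747) ended the call, and over 13 alternatives the adjusted p ranged from 3.79e-05 to 0.0898.

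SPPL2A, an intramembrane protease that clears the membrane remnant of CD74, had 29.9, 37.9 and 32.0 CPM in UC-764864 libraries, against 45.7, 42.0 and 56.7 CPM in DMSO libraries. It fell by 0.53 ± 0.15 (SE) on the log2 scale (edgeR adjusted p = 0.0353). CTSL, a lysosomal protease, averaged 24.5 ± 0.702 CPM in UC-764864 libraries and 17.5 ± 1.22 CPM in DMSO libraries (SD, n = 3 each), a rise of 0.49 ± 0.12 (SE) on the log2 scale (edgeR adjusted p = 0.0256). LAMP1, a lysosomal membrane protein, averaged 297 ± 17.0 CPM in UC-764864 libraries and 208 ± 34.2 CPM in DMSO libraries (SD, n = 3 each), a rise of 0.51 ± 0.13 (SE; edgeR adjusted p = 0.0270). The groups did not overlap for any of these genes. Leaving out UDI0051, UDI0053 or UDI0054 ended all 3 calls (adjusted p of 0.0642 to 0.172), as did keeping all rows as deposited (0.0710 to 0.0938), which also ended that of MARCH1 (0.0728). Those of CTSL and LAMP1 also ended without UDI0052 (0.0689 and 0.0516) and that of SPPL2A without UDI0056 (0.0592). The CTSL call also ended without UDI0052 and UDI0056 together (0.0508). Over 13 alternatives the log2 fold change spanned −0.66 to −0.29 (SPPL2A), 0.34 to 0.55 (CTSL) and 0.36 to 0.65 (LAMP1). Removal of the GC trend gave the smallest change of each gene, with the calls kept. CTSS, the protease that trims CD74 down to CLIP, was chosen after its values were seen and had a log2 fold change of −0.38 that did not pass (edgeR adjusted p = 0.0828).

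**Figure D5:**
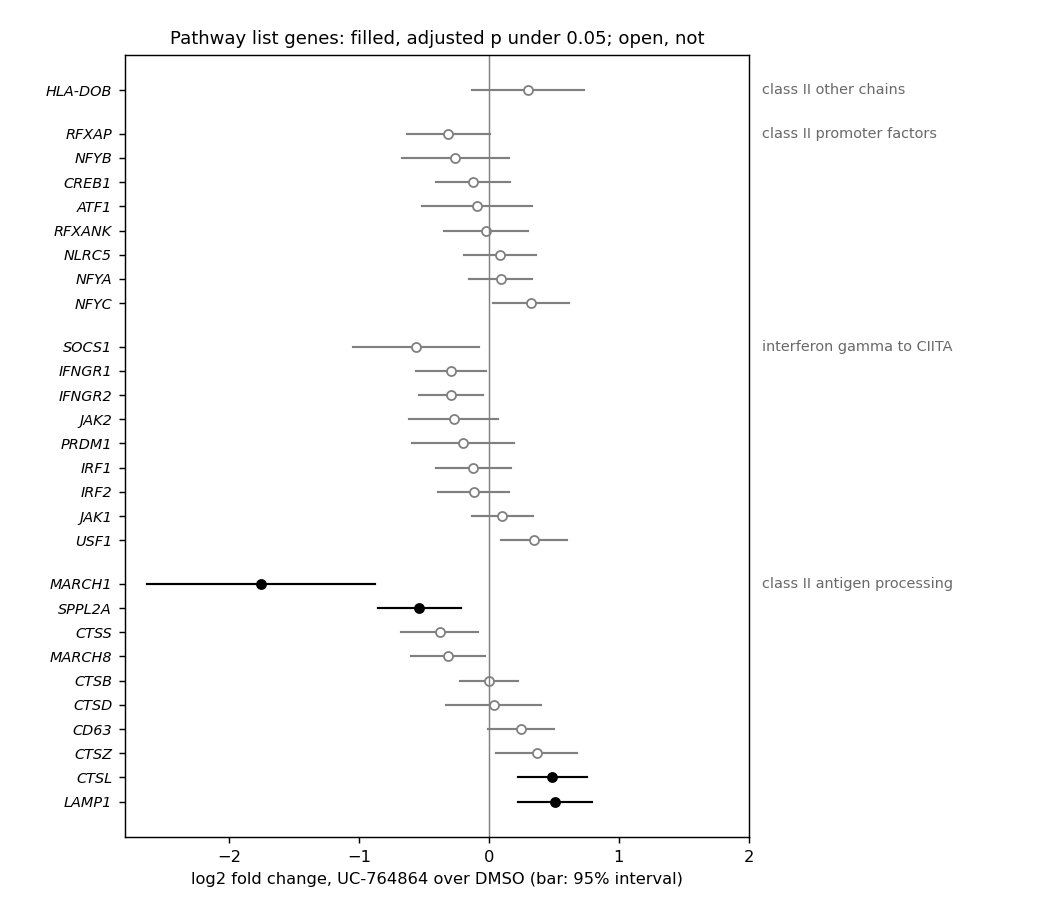
Log2 fold change, UC-764864 over DMSO, with 95% intervals, of tested genes from 4 class II presentation lists; filled points passed at an adjusted p under 0.05. The filled points are MARCH1 and SPPL2A, lower after UC-764864, and CTSL and LAMP1, higher.

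Of 10 tested markers of the myeloid label, 3 fell, 1 rose and 6 did not pass, against 8.13% lower and 5.11% higher over all genes. ITGAM, an integrin of monocytes and granulocytes, averaged 15.98 ± 2.82 CPM in UC-764864 libraries and 32.5 ± 1.58 CPM in DMSO libraries (SD, n = 3 each), and fell by 1.02 on the log2 scale (edgeR adjusted p = 0.00357). The receptor gene CSF1R and the homeobox gene HOXA9 fell by 0.58 and 0.73 (edgeR adjusted p = 0.0179 and 0.00647), and LYZ, which encodes lysozyme, rose by 0.88 (edgeR adjusted p = 0.00141). The markers of this list summed to 6412 to 7414 CPM in UC-764864 libraries and 4159 to 4424 CPM in DMSO libraries, mostly LYZ. Of 3 tested T and NK cell markers, 1 was called lower and 0 higher, against 8.13% and 5.11% over all genes. It was CD3D, which fell by 1.07 (edgeR adjusted p = 0.0358), with a mean of 0.507 CPM in UC-764864 libraries and 1.09 CPM in DMSO libraries. CD3D counts were low, at 12, 7 and 10 in UC-764864 libraries and 26, 23 and 18 in DMSO libraries. CD3G and KLRD1 were at 0. The 7 markers summed to 32.3 to 45.3 CPM in UC-764864 libraries and 49.1 to 56.9 CPM in DMSO libraries, mostly NKG7. Whether these changes have a part in the fall of HLA-DRA was not tested. Whether the marker calls hold in fits that leave out a library was not checked.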

How the data were processed

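The deposited table holds raw counts, whole numbers per gene symbol and library, with no normalization, per the file headers. FastQC 0.11.7, HISAT2 2.0.5, featureCounts 1.5.2 and GRCh37 are named without roles in the submitters' processing notes. Annotation release and strand setting: not given in the sources used here. Columns were assigned to treatments from the authors' metadata table.

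Members and lists were chosen with earlier results of these data known. UDI0055 holds 0 in 2 runs of rows (115 and 3684), which were read as missing and left out for every library. These runs hold at least 5 rows with 50 or more counts in each other library. Counts were tested in R 4.3.3 with edgeR 4.0.16 (filterByExpr, TMM factors, glmQLFit and glmQLFTest, treatment as the only term, Benjamini-Hochberg over 13490 genes, threshold 0.05). The fit was tested on simulated data. Standard errors were derived from the F statistic. No pair of libraries came down to sampling noise (chi-square 4.40 to 78.8 per degree of freedom). Gene GC content, from GENCODE v29 transcripts, was matched for 86.3% of tested genes. DESeq2 1.42.0 was an alternative, as were other scalings, filters and left-out libraries.

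Named by rule were all members, the called genes of each pathway list or else its gene with the smallest p, and markers at 0 or called. Any other gene given with values was chosen after its values were seen. These include the markers CD33, FLT3, SPI1, MPO, CD14, CD68, FCGR1A, MEIS1, CD83 and NKG7, and the chain genes HLA-DQA1 and HLA-DRB5. Marker lists covered myeloid, B, dendritic, T and NK, erythroid and megakaryocyte, and stromal and epithelial cells. Of the last 2 lists, 0 and 3 genes were tested. edgeR and DESeq2 called 0 of them, with 2 lower at an unadjusted p under 0.05, against 16.6% of all genes. They summed to 0.129 to 0.526 and 18.4 to 19.7 CPM after UC-764864, and to 0.461 to 0.751 and 17.6 to 20.9 CPM after DMSO. ALAS2, of the erythroid and megakaryocyte list, lies in the rows left out and is not in its sum. One gene of the interferon gamma list is counted in its list but is not reported here.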

Additional observations from a re-analysis of the deposited data

How the results depend on the processing

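HLA-DRA passed in all 13 alternatives. HLA-DRB1 passed with RLE factors (−0.90), with library size alone (−0.92), with no filter (−0.89), without UDI0052 and UDI0056 (−0.93) and with the GC trend removed (−1.01), HLA-DQB1 with the GC trend removed (−0.67), and RFX5 with DESeq2 (0.35) and once the GC trend was removed (0.22). HLA-DMA, with no call, turned to −0.014 with RLE factors, −0.042 with library size alone, −0.0058 with no filter, −0.0076 with DESeq2, −0.024 with all rows kept and −0.14 with the GC trend removed, and HLA-DMB to 0.025 without UDI0052 and UDI0056. Fits that left out a library gave −1.25 to −1.12 for HLA-DRA, −1.08 to −0.67 for HLA-DRB1, −0.69 to −0.48 for HLA-DQB1, −0.91 to 0.13 for HLA-DPA1, −0.17 to 0.072 for CD74, −0.063 to 0.044 for HLA-DMA, −0.51 to −0.10 for HLA-DMB, −0.39 to −0.15 for CIITA and 0.30 to 0.42 for RFX5. HLA-DPA1 turned to 0.13 without UDI0053 and to 0.13 without UDI0055, CD74 to 0.072 without UDI0055, and HLA-DMA to −0.060 without UDI0053 and to −0.063 without UDI0054. The ratio of HLA-DRA to CD74 differed by −1.32 to −0.96 and that of HLA-DRA to HLA-DRB1 by −0.59 to 0.01 without a library.

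Members called lower numbered 2 with RLE factors, with library size alone, with no filter, or without UDI0052 and UDI0056, 3 with the GC trend removed, and 1 to 3 without a library, where UDI0056 gave 3. Members called higher numbered 1 under DESeq2 and 1 once the GC trend was removed, and 0 to 1 without a library. Pathway list genes called higher numbered 0 with all rows kept, 1 without UDI0052 and UDI0056, 5 with the GC trend removed, and 0 to 4 without a library, and those called lower 0 with all rows kept, 6 with the GC trend removed, and 0 to 4 without a library. Over all genes, the main fit called 690 higher and 1097 lower. Genes called lower numbered 1161 with RLE factors, 1271 with library size alone and 1676 with no filter. They numbered 1233 without UDI0052 and UDI0056, and 912 without UDI0056 alone. Genes called higher numbered 904 with DESeq2 and 559 without UDI0052 and UDI0056. All rows kept as deposited gave 22 higher and 125 lower, and removal of the GC trend 1881 higher and 1792 lower. RLE factors and library size alone tested the same 13490 genes as the main fit, so 1161 and 1271 are out of 13490. Removal of the GC trend left 11647 tested genes, so 1881 and 1792 are out of 11647. The other edgeR fits changed the rows, the filter or the libraries, and the genes tested may differ, so no shares are given for them. Without a library, 62 to 1525 were higher and 278 to 1729 lower, the fewest without UDI0051 and the most without UDI0055. The cause of these shifts was not tested. No paired analysis was possible because the columns of the table carry no replicate number. Low counts limit HLA-DPA1, HLA-DPB1, HLA-DMB, MARCH1 and CD3D.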
